A study of Homo sapiens with 44 samples.

Results

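The genes described here were 10 interferon-induced antiviral effectors, namely IFIT1, IFIT2, IFIT3, IFIT5, MX1, MX2, RSAD2, IFI44, IFI44L and IFI6. They were chosen by name as row symbols of the count table, which held 40663 symbols. All 10 were found in the table, and each was followed across 11 groups of bulk RNA-seq libraries.

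Type I interferons such as IFN-α bind a receptor pair, IFNAR1 and IFNAR2, and the kinases JAK1 and TYK2 then start a signal that yields a complex holding STAT2 and IRF9, which binds a DNA motif called the interferon-stimulated response element (ISRE). IFN-γ uses another receptor pair and the kinases JAK1 and JAK2, and acts mainly through another DNA motif, the gamma-activated sequence (GAS). Proteins made from some of the genes with an ISRE block viral replication at several steps, and fibroblasts of the gut wall, like most cells, carry both receptors.

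The libraries were made from Ccd-18Co, a human colon fibroblast line bought from a commercial repository and used up to passage 20. Cells were starved without serum for 72 h and then left unstimulated or given 1 cytokine for 24 h, and 4 libraries were labelled for each of the 11 groups. The 10 cytokines were IL-1β, IL-6, IL-13, IL-17A, IL-22, IFN-α, IFN-γ, TGF-β1, TNF and oncostatin M (OSM), at 10 ng/ml each except IL-1β at 0.1 ng/ml, for which a legend of the study gives 0.01 ng/ml. The groups therefore shared 1 line, the starvation and the culture format, and they limit the description to cells of 1 origin in culture without other cell types. The labels number the replicates of each group but do not say that they came from separate cultures, so p-values measure only the spread between these libraries, which may be technical.

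Totals ran from 742173 to 2213424 estimated counts per library, with a median of 1480883. Levels are given in CPM, counts per 1000000 counts of the library after trimmed-mean (TMM) scaling of its size, and a group with at most 3 counts in each of its 4 libraries was treated as at the floor. All 9 fibroblast markers (COL1A1, COL1A2, COL3A1, COL6A3, PDGFRB, VIM, DCN, LUM and THY1) were measured in each group, with summed levels of 16979 to 52682 CPM per library. Summed markers of other cell types reached at most 1.71 CPM for epithelium, 4.15 CPM for leukocytes and 2.65 CPM for endothelium. In bulk libraries, fewer responding cells and less RNA per cell cannot be told apart, and this holds for each level below.

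In the GRCh38 annotation the members lie in 5 places. IFIT2, IFIT3, IFIT1 and IFIT5 follow each other on the forward strand of chromosome 10 between positions 89283694 and 89421605, MX2 and MX1 are neighbours on chromosome 21 between 41361999 and 41470071, and IFI44L and IFI44 are neighbours on chromosome 1 between 78619902 and 78664078. RSAD2 lies on the forward strand of chromosome 2 from 6865557 to 6898239, and IFI6 on the reverse strand of chromosome 1 from 27666064 to 27672212. No source used here says whether counting used strand, and the exons of 2 members overlapped those of another annotated gene. These were MX1, which shared 236 bases, or 8.5% of its main transcript, with a non-coding RNA of the opposite strand, and IFI6, which shared 216 bases, or 26.6%, with LINC02574 of the same strand, so reads there are uncertain.

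The promoters of 8 members were present among the RefSeq promoter sequences (GRCh38.p14, 250 bases before to 50 after each annotated start), while IFIT2 and MX2 had no entry. Some of the 8 genes have several annotated starts, giving 13 windows. The ISRE was searched as GAAANNGAAA or its reverse complement TTTCNNTTTC, and the GAS as TTCNNNGAA, which reads the same on both strands. An ISRE match was present in 11 of the 13 windows and in at least 1 window of each of the 8 genes, against 1255 of all 35116 promoter windows, or 3.57%. The windows of IFI44 overlap and share the same ISRE match, which is counted in both. A GAS match was present in 1 of the 13 windows, at an MX1 start, where it overlapped an ISRE match by 3 bases, and in 7.66% of all windows. The 160 bases before the start of 4 genes are shown because these 4 differ most in how they behaved below, IFIT1 as the IFIT gene with the most RNA under IFN-α, IFIT5 as the weakest responder, RSAD2 as silent without stimulation and IFI6 as the member raised by most cytokines. Capitals mark ISRE matches that end before the start, and the sequences read 5′ to 3′ on the gene's strand.
IFIT1 (chr10:89392463-89392622, forward): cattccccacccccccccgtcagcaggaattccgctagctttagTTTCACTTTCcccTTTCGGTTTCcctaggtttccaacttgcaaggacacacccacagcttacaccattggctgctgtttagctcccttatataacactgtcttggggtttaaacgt
IFIT5 (chr10:89414408-89414567, forward): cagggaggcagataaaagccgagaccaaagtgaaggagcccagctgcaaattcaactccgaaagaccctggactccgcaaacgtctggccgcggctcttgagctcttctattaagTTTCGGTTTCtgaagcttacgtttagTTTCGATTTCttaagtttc
RSAD2, its second annotated start (chr2:6877617-6877776, forward): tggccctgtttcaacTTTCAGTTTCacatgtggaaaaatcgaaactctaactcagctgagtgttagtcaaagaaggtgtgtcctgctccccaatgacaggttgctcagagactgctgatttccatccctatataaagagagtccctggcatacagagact
IFI6 (chr1:27672193-27672352, reverse): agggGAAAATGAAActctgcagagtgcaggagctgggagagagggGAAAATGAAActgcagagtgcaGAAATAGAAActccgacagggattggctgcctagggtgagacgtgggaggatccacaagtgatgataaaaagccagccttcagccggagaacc

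The IFIT1 window held 2 matches with 3 bases between them, and the IFI6 window held 3. The IFIT5 window held 2 matches before the start and another that runs across it, from 4 bases before to 6 bases after the start. The match of RSAD2 lay 145 to 136 bases before its second annotated start, and its first start had none of these letters. A match of letters is a description of the sequence and was not measured as a bound site in these libraries.

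**Figure D1:**
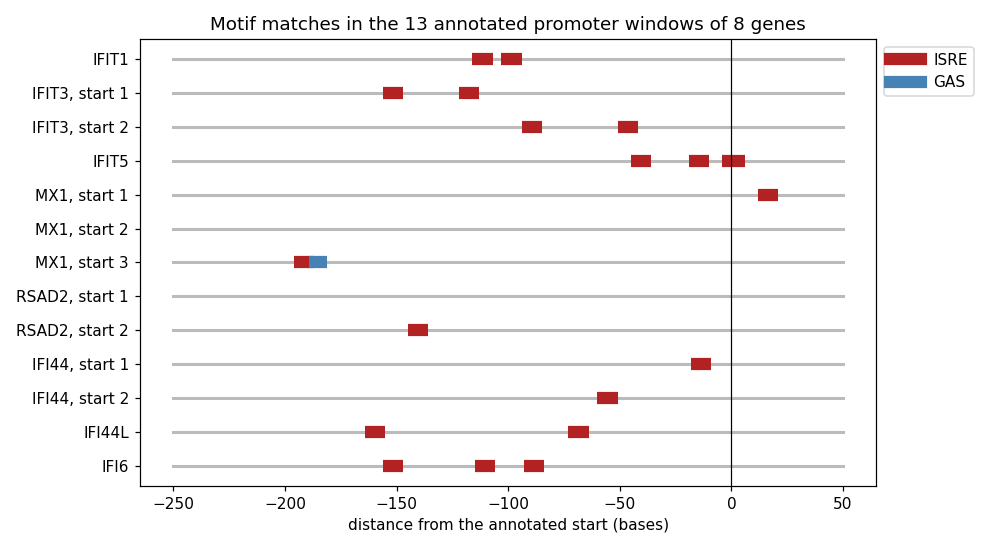
Positions of ISRE (red) and GAS (blue) letter matches along the 13 promoter windows of the 8 members with an entry, as distance in bases from the annotated start (vertical line). Each grey line is 1 window of 300 bases, and 11 of the 13 carry at least 1 ISRE match. The windows of IFI44 overlap, and the match drawn in both is the same site.

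IFN-α raised all 10 members, the comparison that asks how colon fibroblasts answer a type I interferon. Against unstimulated libraries, 10 of 10 were called by the quasi-likelihood test of edgeR, with p adjusted over 9513 genes by Benjamini-Hochberg. A call here and throughout needed that p to be under 0.05 together with a log2 fold change beyond 1.5 in either direction. SE is an approximate standard error of the log2 fold change, derived from the F statistic of the same test. In this comparison 2.46% of all tested genes were called higher. Together the 10 genes took 0.0177% to 0.0188% of all counts in the unstimulated libraries and 3.53% to 3.93% in the IFN-α libraries. The median log2 fold change of the 10 was 8.94, beside -0.01 over all tested genes. In none of the 10 did the IFN-α and unstimulated libraries overlap, and the share of all tested genes without overlap was not counted. RSAD2 passed the filter on low counts only through the IFN-α libraries, and MX1, MX2 and IFI44 only through those of the 2 interferons, so their entry into the test depended on the groups in which they were high.

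**Figure D2:**
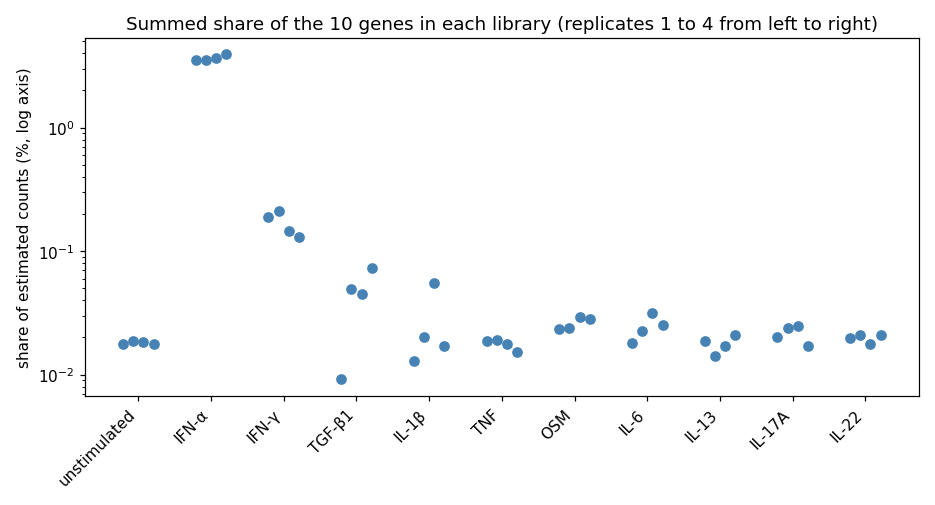
Share of all estimated counts taken by the 10 members together in each library (percent, log axis), with the 4 libraries of a group side by side as points. The IFN-α libraries lie at 3.53% to 3.93%, the IFN-γ libraries at 0.130% to 0.213%, and TGF-β1 replicate 1 at 0.00915%, below its 3 companions.

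The IFIT genes encode tetratricopeptide-repeat proteins that bind viral RNA, and IFIT1 recognises RNA whose cap lacks a methyl mark. IFIT1 stood at 44.6, 88.9, 85.1 and 67.6 CPM in the 4 unstimulated libraries and at 14475, 14702, 16576 and 16304 CPM in the 4 IFN-α libraries. The IFN-α libraries differed little among themselves and lay far above the unstimulated ones, a 218-fold rise (log2 fold change 7.77 ± 0.55 SE, adjusted p = 2.51e-15). IFIT2 went from 8.81, 10.9, 4.93 and 6.15 CPM to 4504, 4380, 3797 and 3568 CPM, a 519-fold rise (9.02 ± 0.60 SE, adjusted p = 1.56e-15).

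IFIT3, which binds IFIT1 and IFIT2 in a complex, went from 11.8, 16.0, 14.1 and 4.78 CPM to 7022, 7106, 8169 and 7920 CPM, a 646-fold rise (log2 fold change 9.33 ± 0.56 SE, adjusted p = 1.46e-17). IFIT5, the last of the 4 on chromosome 10, binds RNA on its own. It was already expressed without stimulation, at 67.1, 40.8, 66.1 and 79.2 CPM, and reached 331, 316, 358 and 496 CPM, a 5.91-fold rise (2.56 ± 0.27 SE, adjusted p = 5.5e-10), the smallest among the 10 members.

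MX1 and MX2 encode dynamin-like GTPases that trap viral nucleoproteins and capsids. MX1 had 5, 4, 3 and 1 counts in the unstimulated libraries and 1151, 1089, 965 and 760 CPM under IFN-α, a 462-fold rise (log2 fold change 8.85 ± 0.52 SE, adjusted p = 2.49e-17). MX2 was at the floor in unstimulated cells, with 2, 1, 3 and 0 counts, and reached 335, 265, 218 and 153 CPM. Its rise was at least 124-fold when the unstimulated mean was set at the floor of 3 counts per library (adjusted p = 2.31e-11).

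RSAD2 encodes viperin, a radical SAM enzyme that makes a chain-terminating nucleotide. It was silent at this depth in unstimulated cells, with 0 counts in each of the 4 libraries, and stood at 796, 742, 736 and 695 CPM under IFN-α. The rise was at least 380-fold against the floor of 3 counts per library (adjusted p = 5.46e-14).

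IFI44 and IFI44L are neighbouring paralogs whose proteins are linked to restraint of viral growth. IFI44 had 0, 2, 0 and 0 counts in the unstimulated libraries and 207, 211, 352 and 329 CPM under IFN-α, at least 141-fold higher (adjusted p = 1.57e-11). IFI44L had 0, 3, 0 and 0 counts and then 826, 924, 1151 and 1305 CPM, at least 538-fold higher (adjusted p = 2.06e-15). Neither gene was above 3 counts in any unstimulated library.

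IFI6 encodes a small membrane protein that protects the endoplasmic reticulum from viral remodelling. It went from 14.7, 22.6, 26.0 and 19.8 CPM to 4783, 7090, 7333 and 12572 CPM, a 385-fold rise (log2 fold change 8.59 ± 0.72 SE, adjusted p = 5.33e-13). IFN-α replicate 4 stood above the other 3 libraries here, and without it the log2 fold change was 8.30.

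**Figure D3:**
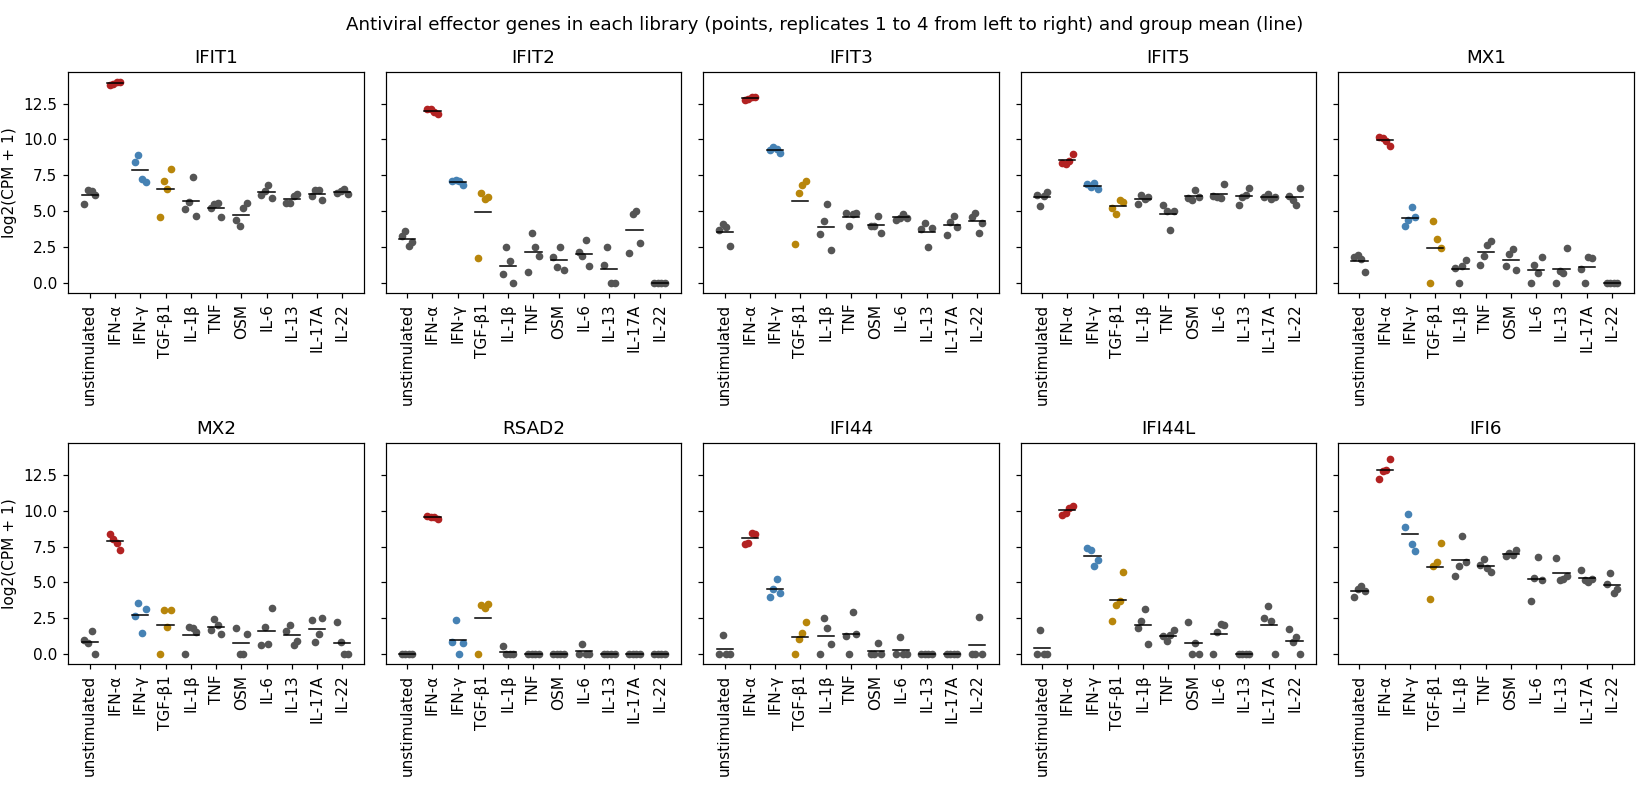
Level of each member in all 44 libraries as log2(CPM + 1), with replicates 1 to 4 of a group as points from left to right and the group mean as a line. IFN-α (red) is the highest group in each panel, IFN-γ (blue) is second in 9 of the 10, and RSAD2 outside IFN-α is highest in 3 of the 4 TGF-β1 libraries (brown).

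IFN-γ raised 8 of the 10 members, where 2.4% of all tested genes were called higher, and IFIT5 and RSAD2 did not pass. The median log2 fold change of the 10 was 4.08, beside -0.01 over all tested genes. IFIT3 stood at 618, 699, 653 and 540 CPM, a 53.6-fold rise (log2 fold change 5.74 ± 0.50 SE, adjusted p = 3.32e-12). IFIT2 stood at 133, 140, 139 and 113 CPM, a 16.8-fold rise (4.07 ± 0.54 SE, adjusted p = 3.56e-07). The IFN-γ libraries of both genes lay close together and far above the unstimulated range.

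IFIT1, the most abundant IFIT transcript under IFN-α, moved least among those called. It stood at 340, 487, 148 and 130 CPM, a 3.88-fold rise (log2 fold change 1.96 ± 0.44 SE, adjusted p = 0.0017), with the lowest IFN-γ library above the highest unstimulated one. IFIT5 stood at 117, 101, 124 and 90.4 CPM, each above its unstimulated libraries, and did not pass the test (0.76 ± 0.27 SE, adjusted p = 0.0568).

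MX1 stood at 14.3, 19.9, 37.3 and 23.5 CPM, an 11.0-fold rise (log2 fold change 3.47 ± 0.56 SE, adjusted p = 1.61e-05). MX2 had 7, 13, 2 and 11 counts, which overlapped the unstimulated 0 to 3 counts. Its mean was at least 3.28-fold above the floor (adjusted p = 0.0332), and the call was lost in 5 of the 8 fits that left out 1 library, with adjusted p of 0.0645 without unstimulated replicate 1, 0.0853 without unstimulated replicate 2, 0.103 without unstimulated replicate 4, 0.0827 without IFN-γ replicate 2 and 0.083 without IFN-γ replicate 4.

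RSAD2 had 1, 5, 0 and 1 counts under IFN-γ, which overlapped the 0 counts of unstimulated cells, and it did not pass the test (adjusted p = 0.0818). IFI44 reached 15.1, 22.4, 36.4 and 18.5 CPM, at least 11.8-fold higher (adjusted p = 6.59e-06). IFI44L reached 171, 155, 71.1 and 93.3 CPM, at least 62.8-fold higher (adjusted p = 1.81e-10), and neither overlapped the unstimulated libraries.

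IFI6 stood at 466, 878, 205 and 148 CPM, a 20.5-fold rise (log2 fold change 4.36 ± 0.62 SE, adjusted p = 9.38e-07), or 13.5-fold (3.75) without IFN-γ replicate 2. IFN-γ replicates 1 and 2 were the higher libraries for IFIT1, IFI44L and IFI6, while replicate 3 was the highest for MX1 and IFI44 and the lowest for MX2. The 4 IFN-γ libraries thus had no shared order across the members.

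IFN-α was set directly against IFN-γ to ask whether the members answered them differently, since both comparisons with unstimulated cells share the same controls. All 10 members were higher under IFN-α, where 1.68% of all tested genes were called higher, and the median log2 fold change of the 10 was 4.59 beside -0.004 over all tested genes. RSAD2 had the highest log2 fold change, 8.99 ± 0.52 SE (adjusted p = 1.66e-12), a value that rests on 1, 5, 0 and 1 counts under IFN-γ and was 10.26 without IFN-γ replicate 2. IFIT1 (5.81 ± 0.50 SE), MX1 (5.39 ± 0.41), MX2 (5.22 ± 0.61) and IFIT2 (4.95 ± 0.48) followed on the same scale. The gap was smaller for IFI6 (4.23 ± 0.57, and 4.85 without IFN-γ replicate 2), IFIT3 (3.59 ± 0.42), IFI44 (3.57 ± 0.53), IFI44L (3.10 ± 0.42) and IFIT5 (1.80 ± 0.26), and adjusted p was at most 7.45e-06 for each member. In none of the 10 did the libraries of the 2 interferons overlap, and the share of all tested genes without overlap was again not counted.

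**Figure D4:**
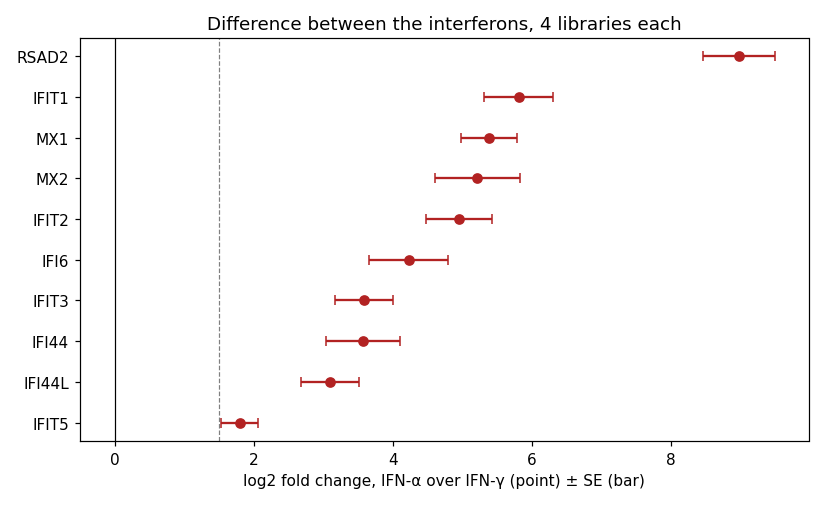
Log2 fold change of each member in IFN-α over IFN-γ libraries (point) with its approximate standard error from the F statistic (bar), 4 libraries a group. A dashed line marks the 1.5 used for a call. All 10 lie to the right of that line, from 1.80 for IFIT5 to 8.99 for RSAD2.

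Expressed as a share of its own mean rise under IFN-α, the IFN-γ rise was uneven between members. RSAD2 reached 0% to 0.559% of it per library, IFIT1 0.376% to 2.69% and IFIT2 2.60% to 3.27%. IFIT3 reached 7.01% to 9.11%, IFI44L 6.71% to 16.2% and IFIT5, whose IFN-α rise was small, 8.69% to 19.5%.

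Levels of different genes were compared only per kilobase of the main transcript. In unstimulated cells IFI6 (25.6 CPM per kb), IFIT1 (16.6) and IFIT5 (15.7) had the highest mean levels, and the other 7 were at 4.88 CPM per kb or less. Under IFN-α the order on this scale was IFI6 (9784), IFIT1 (3606), IFIT3 (3161), IFIT2 (1197), MX1 (357), RSAD2 (218), IFI44L (180), IFI44 (163), IFIT5 (93.1) and MX2 (71.2 CPM per kb). IFIT5 thus went from place 3 to place 9 of the 10. Use of the longest annotated transcript instead gave IFIT3 1882 and MX1 172 CPM per kb under IFN-α.

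TGF-β1, best known for driving collagen production and the myofibroblast state, was the other cytokine with calls in several members. It raised 5 of the 10, namely IFIT2, IFIT3, RSAD2, IFI44L and IFI6, where 0.641% of all tested genes were called higher, and the median log2 fold change of the 10 was 2.19 beside -0.02 over all tested genes. TGF-β1 replicate 1 stood apart from replicates 2, 3 and 4. Its summed share of the members was 0.00915% of counts against 0.0496%, 0.0450% and 0.0729% in the other 3, while its total of 1169216 counts lay within their range of 825001 to 1470192.

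RSAD2 had 0, 9, 9 and 14 counts in TGF-β1 replicates 1 to 4, beside 0 counts in each unstimulated library, so the groups overlapped through replicate 1 alone. The TGF-β1 mean was at least 3.58-fold above the floor (adjusted p = 0.000661), and the DESeq2 Wald test did not call it (adjusted p = 0.159). RSAD2 was also the member for which TGF-β1 ranked second after IFN-α, above IFN-γ by a log2 fold change of 2.25 ± 0.69 SE (adjusted p = 0.0407).

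IFIT2 stood at 2.34, 76.6, 57.2 and 62.4 CPM under TGF-β1, a 6.26-fold rise of the fitted mean (log2 fold change 2.65 ± 0.56 SE, adjusted p = 0.00196). IFIT3 stood at 5.46, 77.6, 111 and 137 CPM, a 7.07-fold rise (2.82 ± 0.49 SE, adjusted p = 0.000111). For both genes replicate 1 lay within or below the unstimulated range and the other 3 far above it, so the groups overlapped only through that library.

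IFI44L had 5, 9, 13 and 70 counts, at least 9.8-fold above the floor (adjusted p = 0.000169), and did not overlap the unstimulated libraries. Replicate 4 carried much of that value, and without it the mean was at least 4.31-fold above the floor (adjusted p = 0.00635). IFI6 stood at 13.3, 69.1, 86.2 and 219 CPM, a 4.73-fold rise (log2 fold change 2.24 ± 0.60 SE, adjusted p = 0.0165). That call was lost without TGF-β1 replicate 4 (1.46, adjusted p = 0.144) and without unstimulated replicate 1 (2.09, adjusted p = 0.0522).

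The other 5 members did not pass under TGF-β1. IFIT1 stood at 22.6, 138, 93.5 and 243 CPM (log2 fold change 0.81 ± 0.44 SE, adjusted p = 0.323), with replicate 1 below and the other 3 above the unstimulated libraries. MX1 had 0, 18, 8 and 6 counts (1.74 ± 0.68 SE, adjusted p = 0.127), MX2 had 0, 7, 3 and 10 counts, and IFI44 had 0, 1, 2 and 5 counts. IFIT5 stood at 35.9, 26.6, 53.5 and 48.4 CPM, the only member with a lower mean than in unstimulated cells (-0.62 ± 0.28 SE, adjusted p = 0.211).

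Without TGF-β1 replicate 1, 6 members passed, MX1 being added at 2.20 on the log2 fold change scale (adjusted p = 0.0313). IFIT2 then had a log2 fold change of 3.07, IFIT3 of 3.23 and IFI6 of 2.62. In replicates 2, 3 and 4 the rise of RSAD2 was 1.29%, 1.10% and 1.38% of its mean IFN-α rise, and that of IFIT2 was 1.70%, 1.22% and 1.35%. That of IFIT1 was 0.432%, 0.142% and 1.11%, and that of IFI44L was 0.859%, 1.07% and 4.84%.

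**Figure D5:**
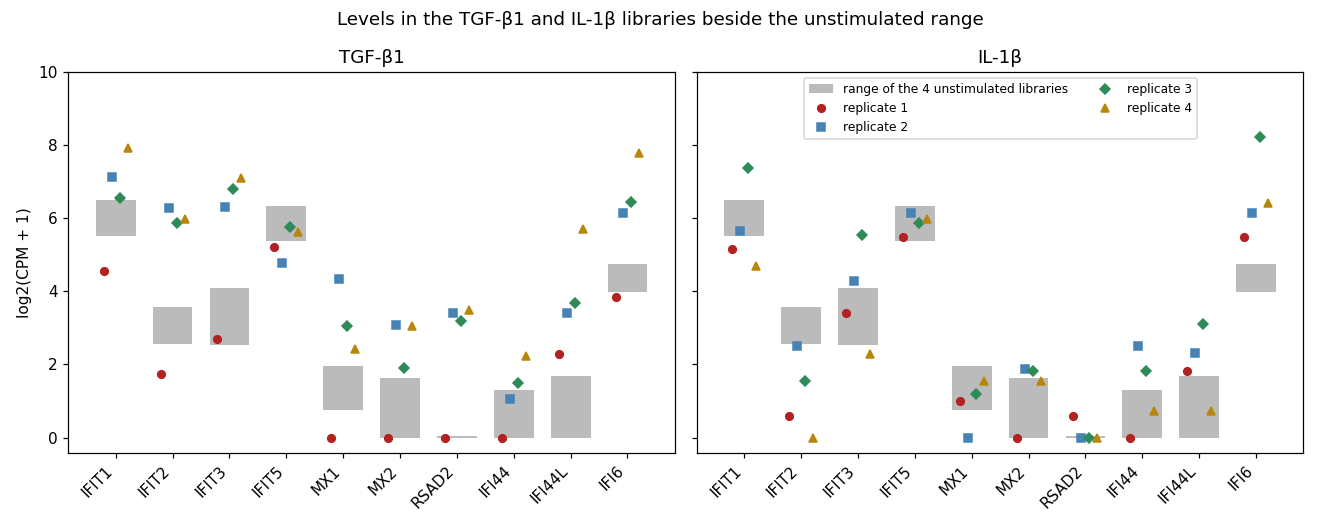
Level of each member in the 4 TGF-β1 libraries (left) and the 4 IL-1β libraries (right) as log2(CPM + 1), 1 symbol per replicate, over a grey bar for the range of the 4 unstimulated libraries. TGF-β1 replicate 1 lies at or below the other 3 in 9 of the 10 members, and IL-1β replicate 3 is the highest library for IFIT1, IFIT3, IFI44L and IFI6.

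Other interferon-linked genes moved with the same libraries. OAS1, which makes the activator of an antiviral RNase, had 0, 19, 7 and 4 counts in TGF-β1 replicates 1 to 4 and 0 counts in each unstimulated library, at least 3.77-fold above the floor (adjusted p = 0.0022), or 1.58-fold without TGF-β1 replicate 2 (adjusted p = 0.0256). The chemokines CXCL10 (4, 70, 101 and 225 counts) and CXCL11 (0, 49, 27 and 131 counts) were also called higher, with log2 fold changes of 5.27 ± 0.77 SE and 5.38 ± 0.97 SE. CXCL10 was at 6.52 without unstimulated replicate 4, and CXCL11 at 9.00 without unstimulated replicate 3 and at 4.57 without TGF-β1 replicate 4. Of 21 interferon ligand genes none passed the filter on low counts, IFNB1 was at 0 in the TGF-β1 libraries, and IFNE had 2, 4, 8 and 8 counts there against 0 in unstimulated cells. The highest IFNE count in any library was 9, under another cytokine, so these counts were not particular to TGF-β1. The part of replicate 1 and of these genes in the members' values was not tested.

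Other genes of the antiviral list were called in both directions under TGF-β1. Of 31 other interferon-induced antiviral genes 30 were tested, and 2 were called higher (OAS1 and IFI27), where 0.641% of all tested genes were called higher. PARP9 was the 1 called lower (-1.96 ± 0.42 SE), where 1.06% of all tested genes were called lower. The median log2 fold change of the list was 0.16, beside -0.02 over all tested genes. ISG15, the ubiquitin-like modifier, was at 0 in all TGF-β1 and unstimulated libraries.

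IFI6 was the member that most cytokines raised, with calls under 6 of the 10. OSM, a cytokine of the IL-6 family, gave 112, 133, 117 and 150 CPM, all above the unstimulated 14.7 to 26.0 CPM, a 6.20-fold rise (log2 fold change 2.63 ± 0.60 SE, adjusted p = 0.00431). It was the only 1 of 10 members called for OSM, where 0.536% of all tested genes were called higher, and it passed in all 8 fits that left out 1 library.

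IL-1β, at its lower dose, gave IFI6 levels of 43.4, 68.9, 298 and 83.7 CPM, a 5.97-fold rise (log2 fold change 2.58 ± 0.60 SE, adjusted p = 0.00274), and 1 of 10 members passed where 1.47% of all tested genes were called higher. Each IL-1β library lay above the unstimulated range. Replicate 3 was far above the other 3 and without it the call was lost (1.66, adjusted p = 0.0912). In that library IFIT1 (166 CPM) and IFIT3 (45.1 CPM) were also above their 3 companions, at 24.6 to 49.0 CPM and 3.89 to 18.6 CPM.

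TNF gave IFI6 levels of 73.4, 99.0, 63.0 and 51.4 CPM, a 3.46-fold rise (log2 fold change 1.79 ± 0.60 SE, adjusted p = 0.0442), where 1.85% of all tested genes were called higher. The groups did not overlap, but the call was lost in 7 of the 8 fits that left out 1 library, with adjusted p of 0.102, 0.0851, 0.0605 and 0.0909 without unstimulated replicates 1 to 4 and of 0.0715, 0.101 and 0.0613 without TNF replicates 1 to 3. IFIT5 went the other way, at 41.7, 31.0, 12.0 and 31.6 CPM under TNF (-1.12 ± 0.28 SE, adjusted p = 0.00528). That p passed but the size was short of 1.5, where 6.09% of all tested genes were lower on p alone and 2.34% were called lower, and 1 TNF library overlapped the lowest unstimulated library.

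IL-6, IL-13, IL-17A and IL-22 gave no call in any member by edgeR's test. The share of all tested genes called higher was 0.0105%, 0.273%, 0.242% and 0% in this order, and that called lower was 0%, 1.2%, 0.21% and 0%. Members with an unadjusted p under 0.05 numbered 1, 2, 1 and 2 of 10, where 2.45%, 15.6%, 12.6% and 10.9% of all tested genes had one. The DESeq2 Wald test called no member for the first 3 and 1 for IL-22, which was IFIT2.

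IFIT2 lay below its unstimulated libraries in several groups without a call by edgeR's test. It had 0 counts in all 4 IL-22 libraries against 18, 15, 7 and 9 counts in unstimulated cells, at least 2.99-fold lower against the floor. edgeR gave an adjusted p of 0.115 and the DESeq2 Wald test one of 0.005. DESeq2 left 7193 of the 9513 genes without an adjusted p in this comparison. The 2 values were thus adjusted over different numbers of genes and cannot be compared directly. IFIT2 had 1, 7, 3 and 0 counts under IL-1β, 2, 6, 0 and 0 under IL-13 and 4, 2, 7 and 1 under OSM, also with no overlap with unstimulated CPM, and adjusted p of 0.16, 0.175 and 0.326, where 1.3%, 1.2% and 0.767% of all tested genes were called lower. When all genes with any count entered the fit, IFIT2 passed as lower in these 4 groups. IL-17A gave 3.25, 26.5, 31.2 and 5.74 CPM, with 2 libraries above and 2 within or below the unstimulated range (0.98 ± 0.62 SE, adjusted p = 0.559).

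IFI6 under IL-6 (12.0, 37.9, 109 and 35.6 CPM), IL-13 (101, 35.5, 35.8 and 42.6 CPM) and IL-17A (58.4, 34.3, 32.1 and 36.8 CPM) had higher means than in unstimulated cells without passing, with adjusted p of 1, 0.237 and 0.552. The IL-13 and IL-17A libraries did not overlap the unstimulated ones. IL-22 gave 28.1, 50.5, 17.9 and 21.8 CPM, which did overlap them. MX1 was at 0 counts in all 4 IL-22 libraries, and RSAD2 in all libraries of IL-13, IL-17A, IL-22, TNF, OSM and unstimulated cells, which is not detectable at this depth.

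Ordered by mean CPM, IFN-α came first for all 10 members and differed from the next group in each of them. IFN-γ came second for 9, and differed from the next group for IFIT2, IFIT3, MX1, IFI44, IFI44L and IFI6 but not for IFIT1 (1.15 ± 0.43 SE, adjusted p = 0.0953), IFIT5 (0.51 ± 0.26 SE, adjusted p = 0.258) or MX2 (0.58 ± 0.70 SE, adjusted p = 0.744). TGF-β1 came next after IFN-γ for IFIT1, IFIT2, IFIT3, MX1, MX2 and IFI44L. There it differed from the group below it for IFIT2 (adjusted p = 0.0448), IFIT3 (adjusted p = 0.00904) and IFI44L (adjusted p = 0.0234). It did not differ for IFIT1, MX1 or MX2. IFIT5 had IL-6 and IFI44 had TNF next after IFN-γ. IFI6 had OSM next after IFN-γ, and OSM, IL-1β and TGF-β1 did not differ as neighbours beyond their spread.

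The genes whose group means were most like the members' mean pattern over the 11 groups were OAS1 (Pearson's r = 0.993), OAS2 (0.992), IFI27 (0.987), RIGI (0.986) and USP18 (0.984). These points share libraries, and the interferon groups dominate each of them. The members themselves ranged from 0.876 for IFIT5 to 0.986 for MX1.

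Among genes of the type I receptor and its signal transduction, STAT2 and IRF9 were called higher under both interferons. Under IFN-γ each call was lost in some fit that left out 1 library. STAT2 stood at 1723, 3282, 1055 and 703 CPM under IFN-γ, with a log2 fold change of 2.20 ± 0.30 SE under IFN-α and 1.93 ± 0.30 SE under IFN-γ. Without IFN-γ replicate 2 the latter was 1.41, short of the fold needed, while its p still passed (adjusted p = 0.000151). IRF9 had 27, 15, 24 and 132 counts under IFN-γ, with 2.41 ± 0.62 SE under IFN-α and 2.18 ± 0.62 SE under IFN-γ. Without IFN-γ replicate 4 the IFN-γ value of IRF9 was 1.15 (adjusted p = 0.309), and without unstimulated replicate 4 it was 1.99 (adjusted p = 0.0594). In the direct contrast neither was called by edgeR or by the DESeq2 Wald test, with IFN-α minus IFN-γ values on the log2 scale of 0.28 ± 0.29 SE for STAT2 and 0.23 ± 0.57 SE for IRF9. These became 0.81 for STAT2 without IFN-γ replicate 2 (adjusted p = 0.0469) and 1.28 for IRF9 without IFN-γ replicate 4 (adjusted p = 0.237). IFNAR1, a chain of the type I receptor, had a value of -0.65 ± 0.20 SE (adjusted p = 0.0326), short of the fold needed for a call. The feedback inhibitor USP18, which displaces JAK1 from IFNAR2, was called under both and was higher under IFN-α by 4.38 ± 0.62 SE.

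Of 31 other antiviral genes 30 were tested, IFIH1 being too low. IFN-α raised 30 of 30 with a median log2 fold change of 5.31, and IFN-γ raised 22 with a median of 2.87. Of all tested genes 2.46% were called higher under IFN-α and 2.4% under IFN-γ. In the direct contrast 16 were called, all higher under IFN-α, where 1.68% of all tested genes were called higher. The median of the list was 1.77, so the members' median of 4.59 was larger than that of this list. Under the cytokines with few or no calls among the members, 1 gene of this list was called under IL-13 (XAF1, log2 fold change 1.55 ± 0.32 SE), 1 under IL-17A (PARP9, -1.84 ± 0.40) and 1 under OSM (IFITM1, 2.49 ± 0.28). Of all tested genes 0.273% were called higher under IL-13, 0.21% lower under IL-17A and 0.536% higher under OSM. XAF1 fell short of the fold without unstimulated replicate 1 (1.43) or 3 (1.49) or IL-13 replicate 3 (1.41), and PARP9 missed the threshold on p without IL-17A replicate 2 (adjusted p = 0.0517). Of 4 relatives of the members outside their list (IFIT1B, IFI27, IFI27L1 and IFI27L2) 2 were tested, and of these IFI27 was called higher under IFN-α, IFN-γ and TGF-β1 and IFI27L2 under none of the 10 cytokines by edgeR's test. This list and the members were named from the same pathway, and the difference between the 2 medians was not tested.

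Most genes known for a strong IFN-γ response went the opposite way in the direct contrast. Of 14 tested genes 9 were called, all lower under IFN-α than under IFN-γ, where 1.06% of all tested genes were called lower, and the median log2 fold change was -3.16. Among them were the tryptophan-degrading enzyme IDO1 (-6.48 ± 0.58 SE), the GTPase GBP5 (-5.28 ± 0.65) and the transcription factor IRF1 (-2.99 ± 0.47). HLA-DRA, an antigen-presentation gene, had 225, 193, 257 and 350 counts under IFN-γ and 0, 0, 0 and 4 under IFN-α. CXCL10, CXCL11, PSMB8, PSMB9 and TAP1 of this list were not called. IFN-α minus IFN-γ values on the log2 scale were 0.14 for CXCL10 (adjusted p = 0.913) and 0.74 for CXCL11 (adjusted p = 0.434). Members and list thus had opposite signs of their medians in the same 8 libraries.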

How the data were processed

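The authors quantified reads with kallisto 0.48.0 against hg38 after FastQC 0.11.9 and MultiQC 1.14, as the submitters' notes name them, and the deposited table holds their estimated counts, not normalized, with 1 row per symbol and 1 column for each of 44 libraries. Strandedness and handling of overlapping genes are not given in the sources used here. Of values above 0, 16.63% were not whole within 0.01, and counts were rounded to whole numbers. Columns were tied to groups through the library names of the labels.

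In R 4.3.3, edgeR 4.0.16 (filterByExpr, TMM, glmQLFit and glmQLFTest) was fitted to all 44 libraries with 1 term per group, leaving 9513 genes. Adjustment was by Benjamini-Hochberg over all of them in each comparison, and a call needed p below 0.05 after adjustment with a log2 fold change beyond 1.5 in either direction. Each SE was the size of the log2 fold change divided by the square root of the test's F statistic. It is therefore approximate and may be too small where a group had few counts, as for RSAD2 under IFN-γ. All 10 members passed the filter, but RSAD2 would not without the IFN-α libraries, nor MX1, MX2 and IFI44 without both interferons. On counts simulated for IFN-α against unstimulated (8794 genes tested), the fit called 73.3% of 90 genes changed by 2 and 95.5% of 110 changed by 3 on the log2 scale, and 4 unchanged genes. The changed genes were drawn only above a minimum unstimulated level. MX1, MX2, RSAD2, IFI44 and IFI44L lay below that level, so these rates do not apply to them. Folds against a group at the floor use 3 counts per library, and such floors cover counting error only. Per-kilobase levels use the Ensembl canonical transcript of the GRCh38 annotation.

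Alternatives were DESeq2 1.42.0, its size factors, other filters, only the compared groups, the replicate number as a block, other fold thresholds, each library left out and, for list counts under the other cytokines, the same settings added after seeing the data, as were the values of listed genes and of folds against the floor without 1 library. The members and lists were chosen with earlier results of these data known. Genes named were the members, the listed pathway genes and the 5 most like the members. Of the pathway lists, CIITA, IFIH1, IRF7, SOCS1 and TYK2 were too low to test, as were IFIT1B, IFI27L1 and the interferon ligands, and 1 gene of the type I signalling list is not reported here. The most alike pair of libraries of a group differed by 3.21 times the chi-square expected from counting, so no 2 libraries agreed within counting noise.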

Additional observations from a re-analysis of the deposited data

Results flagged for a closer look

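In 90 sets of 4 libraries in which a member had more than 3 counts in at least 1 library, the highest or lowest library was compared with the rest by Dixon's ratio, and 6 exceeded the 95% critical value, where chance alone gives about 4.5. IFI6 under IL-1β stood at 298 CPM in replicate 3 against 43.4 to 83.7 CPM in the other 3, and under IL-13 at 101 CPM in replicate 1 against 35.5 to 42.6 CPM. IFI44L under TGF-β1 stood at 51.4 CPM in replicate 4 against 3.90 to 11.8 CPM. IFIT5 under IL-6 stood at 115 CPM in replicate 4 against 59.5 to 63.9 CPM. IFIT3 under TNF stood at 14.6 CPM in replicate 2 against 26.3 to 28.2 CPM. IFI44 under IL-22 stood at 5.13 CPM, or 4 counts, in replicate 3 against 0 in the other 3.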

How the results depend on the processing

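The 10 members called under IFN-α, and the 10 called for IFN-α over IFN-γ, passed under each alternative run, and no called log2 fold change changed sign. With all genes that had any count, members called higher were 9 under IFN-γ with RSAD2 added (adjusted p = 0.0232) and 6 under TGF-β1 with MX1 added (adjusted p = 0.00828). They were 2 under IL-1β, 2 under TNF and 1 under IL-17A, and IFIT2 was the 1 called lower under IL-1β, IL-13, IL-22 and OSM. Of 23518 genes in that fit, 391 were called in either direction under IFN-γ, 199 under TGF-β1, 310 under IL-1β and 442 under TNF. Under IL-17A, IL-13, IL-22 and OSM these were 86, 188, 13 and 157. IRF1 was lost under IFN-α (0), and the other antiviral list gave 1 under IL-1β and 2 under IL-13. DESeq2 called 1 member lower under IL-22 and 2 genes of that list under IL-13. Of 9513 genes it called 2 in either direction under IL-22 and 174 under IL-13. With only the compared libraries, TGF-β1 called 3 of the 5 members that passed the filter there, RSAD2 and IFI44L being too low, and 1 gene of that list, IFN-γ called 7 of 8, IL-17A called 0 of it, and IRF1 was lost under IFN-α (0). Genes called there in either direction were 107 of 7446 under TGF-β1, 235 of 7449 under IFN-γ, 31 of 7463 under IL-17A and 342 of 7655 under IFN-α. With an absolute log2 fold change above 1, 1 member was lower under TNF, and the list gave 1 under IL-1β, 1 under TNF and 2 under OSM. With no fold threshold, 1 member was lower under TNF, the list gave 3 under IL-1β, 6 under TGF-β1, 3 under TNF and 3 under OSM, the type II receptor list gave 1 under IFN-α, and the direct contrast gave 1 each for the type I and type II receptor lists. Of 9513 genes, 702 were then called in either direction under IL-1β, 541 under TGF-β1, 1090 under TNF, 377 under OSM and 937 under IFN-α. The direct contrast then called 893. Leaving out 1 library gave 0 to 1 members called higher under IL-1β and 0 to 1 under TNF. For the antiviral list it gave 0 to 2 under IL-13, 0 to 1 under IL-17A, 0 to 1 under IL-1β and 1 to 2 under OSM, and under IFN-α 0 to 1 for the transcription factors and 0 to 1 for the type II receptor list. Apart from the members too low to test, the cause of these changes was not tested.

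The replicate numbers were not taken as pairs, since only 6 of 44 same-numbered pairs had a correlation of deviations above 0.1 and no comparison had all 4. With the replicate block, the members called were 10 under IFN-α, 8 under IFN-γ and 5 under TGF-β1, and the 1 changed count was that of the transcription factors under IFN-α, where IRF1 was lost (0).

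Totals of 742173 to 2213424 counts limit MX1, MX2, RSAD2, IFI44 and IFI44L outside the interferon groups, where most libraries held few or no counts.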

Other observations

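CMPK2, a nucleotide kinase gene whose annotated span overlaps that of RSAD2 on the opposite strand without shared exon bases in the main transcript, was also called higher under IFN-α, with 212, 186, 161 and 263 counts against 3, 0, 3 and 0 in unstimulated cells. Under TGF-β1 it had 0, 0, 5 and 0 counts, where RSAD2 had 0, 9, 9 and 14. LIPA, which encodes a lysosomal lipase and spans IFIT1, IFIT2 and IFIT3 on the opposite strand without sharing exon bases with their main transcripts, had 177, 121, 52 and 101 counts under IFN-α and 69, 50, 69 and 72 in unstimulated cells, a value looked up after the annotation was seen.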
